A study of Bos taurus with 20 samples.

Results

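The genes described here are the 9 bovine enzymes and cofactors that write, copy, or oxidise methyl groups on cytosine, namely DNMT1, DNMT3A, DNMT3B, DNMT3L, TET1, TET2, TET3, UHRF1, and UHRF2. They were chosen by gene symbol, with no expression value in the rule, and all 9 were found among the 22550 genes or transcripts of the array. They are read by 26 probes, which have 19 distinct sequences, of 61325 probes in all. Expression was measured on 20 one-colour arrays, with 4 arrays in each of 5 groups. The groups were theca (TH), granulosa cells (GC), cumulus cells (CC), oocytes, and cumulus cells collected after 4 h of in vitro maturation (CC-IVM), and the first 4 of these were taken at the immature stage, without culture. All came from bovine antral follicles of 3 to 6 mm, in ovaries obtained from an abattoir. The theca was scraped from follicle walls, so that other cells of the wall can be present. The study calls the 4 samples of a group biological replicates, but the sources used here do not state which animals they came from, and p-values therefore measure only the spread between these samples.

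In mammals, DNMT1 copies methylation onto the new strand after DNA replication. UHRF1 binds hemimethylated CpG sites and brings DNMT1 to them, and UHRF2 is its paralogue. DNMT3A and DNMT3B methylate sites that carry no mark, and DNMT3L is a cofactor without catalytic activity that stimulates them. TET1, TET2, and TET3 oxidise 5-methylcytosine to 5-hydroxymethylcytosine and further forms, which can be lost at replication or cut out by base excision repair. The growing oocyte acquires the methylation of its genome, imprinted regions included, before it resumes meiosis, and TET3 stored in the egg is known for oxidising the paternal genome after fertilisation. The somatic cells of the follicle divide, whereas the oocyte is arrested in meiosis and stores transcripts for the embryo.

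Each gene is represented on the array by probes of 60 bases, and 7 of the 9 genes have 2 probes. TET1 has 8 spots for 3 sequences and UHRF2 has 4 spots for 2 sequences. No member sequence was also carried by a probe of another gene (0 of the 19). The sequences of TET1, TET3, and DNMT3B are shown because results for these genes depend on which probe is read or on whether its signal is above background. In TET1, capitals mark the 7 bases with which probe A ends and probe B begins. Probe B and probe C share 53 bases. In TET3, capitals mark the 1 base of each probe that the other lacks, so that both probes read the same 59 bases and do not measure the transcript independently. The sequences of DNMT3B carry no capitals.
TET1 probe A: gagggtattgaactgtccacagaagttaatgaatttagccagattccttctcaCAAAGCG
TET1 probe B: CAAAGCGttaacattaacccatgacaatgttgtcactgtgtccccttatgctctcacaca
TET1 probe C: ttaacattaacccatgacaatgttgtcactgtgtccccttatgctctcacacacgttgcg
TET3 probe A: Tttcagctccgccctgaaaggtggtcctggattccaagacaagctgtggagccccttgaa
TET3 probe B: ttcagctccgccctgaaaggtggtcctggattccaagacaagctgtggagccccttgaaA
DNMT3B probe A: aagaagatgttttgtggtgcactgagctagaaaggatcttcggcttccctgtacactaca
DNMT3B probe B: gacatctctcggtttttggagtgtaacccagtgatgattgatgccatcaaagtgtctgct
Per the file headers and annotation the array was designed on UMD 3.1, and the files give the span of the transcript rather than the exon of a probe. The transcripts lie at chr7:15913446-15956917 for DNMT1, chr7:20436670-20469912 for UHRF1, chr8:38569327-38636946 for UHRF2, chr11:74030425-74059688 for DNMT3A, chr13:62700411-62721124 for DNMT3B, chr1:145703698-145718149 for DNMT3L, chr28:25073149-25191276 for TET1, chr6:21176966-21218829 for TET2, and chr11:10546064-10646706 for TET3.

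Expression is given on a log2 scale, as the median processed intensity of a gene's spots relative to the 75th percentile of its array. Values of different genes come from different probes and are not compared with each other. Each difference was tested with limma, p-values were adjusted by Benjamini-Hochberg for all 22550 genes, and 0.05 was the threshold. On each array 49.3 to 68.8% of probes were marked as well above background, no spot was saturated, and the oocyte arrays were brighter, with a 75th percentile of 1521 to 2891 against 284 to 1101 elsewhere. Over all genes the median difference was -0.52 for the oocyte against the somatic mean and 0.37 for CC-IVM against CC, and these medians were -0.01 and 0.01 after quantile normalization and -1.297 and 0.55 after normexp correction of the background. Theca markers (5 of 5) and oocyte markers (6 of 6) had their highest mean in the group of that name, while 3 of the 4 granulosa and cumulus markers were highest in CC and 1 in CC-IVM. TH replicate 4 and GC replicate 4 stood apart from their groups, with root mean square differences of 0.79 and 0.70 from the other arrays of the group. CC-IVM replicate 2 (0.82), CC-IVM replicate 1 (0.70), and oocyte replicate 2 (0.75), the oocyte array with the lowest share of probes above background (49.3%), also lay apart. Some of the results that rest on these arrays are given with and without them. Replicates 1 and 2 of TH, GC, CC, and oocytes lay on one slide and replicates 3 and 4 on another, whereas all CC-IVM arrays lay on a slide of their own, so that slide and maturation cannot be told apart. In RNA from many cells, fewer cells of a type and less RNA per cell cannot be told apart.

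The first comparison asks how the methylation machinery differs between the germ cell and the somatic cells of the follicle. In the oocyte, DNMT1, UHRF1, UHRF2, DNMT3B, and TET3 were higher than in the somatic mean (the average of TH, GC, and CC), and TET1 was lower. UHRF1 was 28.5-fold and UHRF2 22.3-fold higher, DNMT1 4.71-fold higher, and TET1 7.76-fold lower. DNMT3B was well above background in the oocyte only and DNMT3L in CC-IVM only. DNMT3A did not pass the test. The F-test over TH, GC, CC, and oocytes called 7 of the 9 genes, where it called 71.3% of all genes, and DNMT3A (adjusted p = 0.175) and TET2 (adjusted p = 0.158) were the other two. Against the somatic mean, 5 of the 9 were called higher in the oocyte, where 32.9% of all genes were, and 3 were called lower, where 38.3% were. With so many genes called over the whole array, the share of members called higher lay above the background and the share called lower below it, and no test was made of either. Those called lower were TET1, TET2, and DNMT3L, the last of which had no oocyte, TH, GC, or CC array well above background and so has no measured level on either side. All 4 oocyte arrays lay above all 12 somatic arrays in 5 members and below them in 1, TET1. In DNMT3B and TET3, which are among the 5, no somatic array was well above background. The share of all genes without overlap was not counted, here or in the later comparisons, so the numbers of members cannot be set against it.

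**Figure D1:**
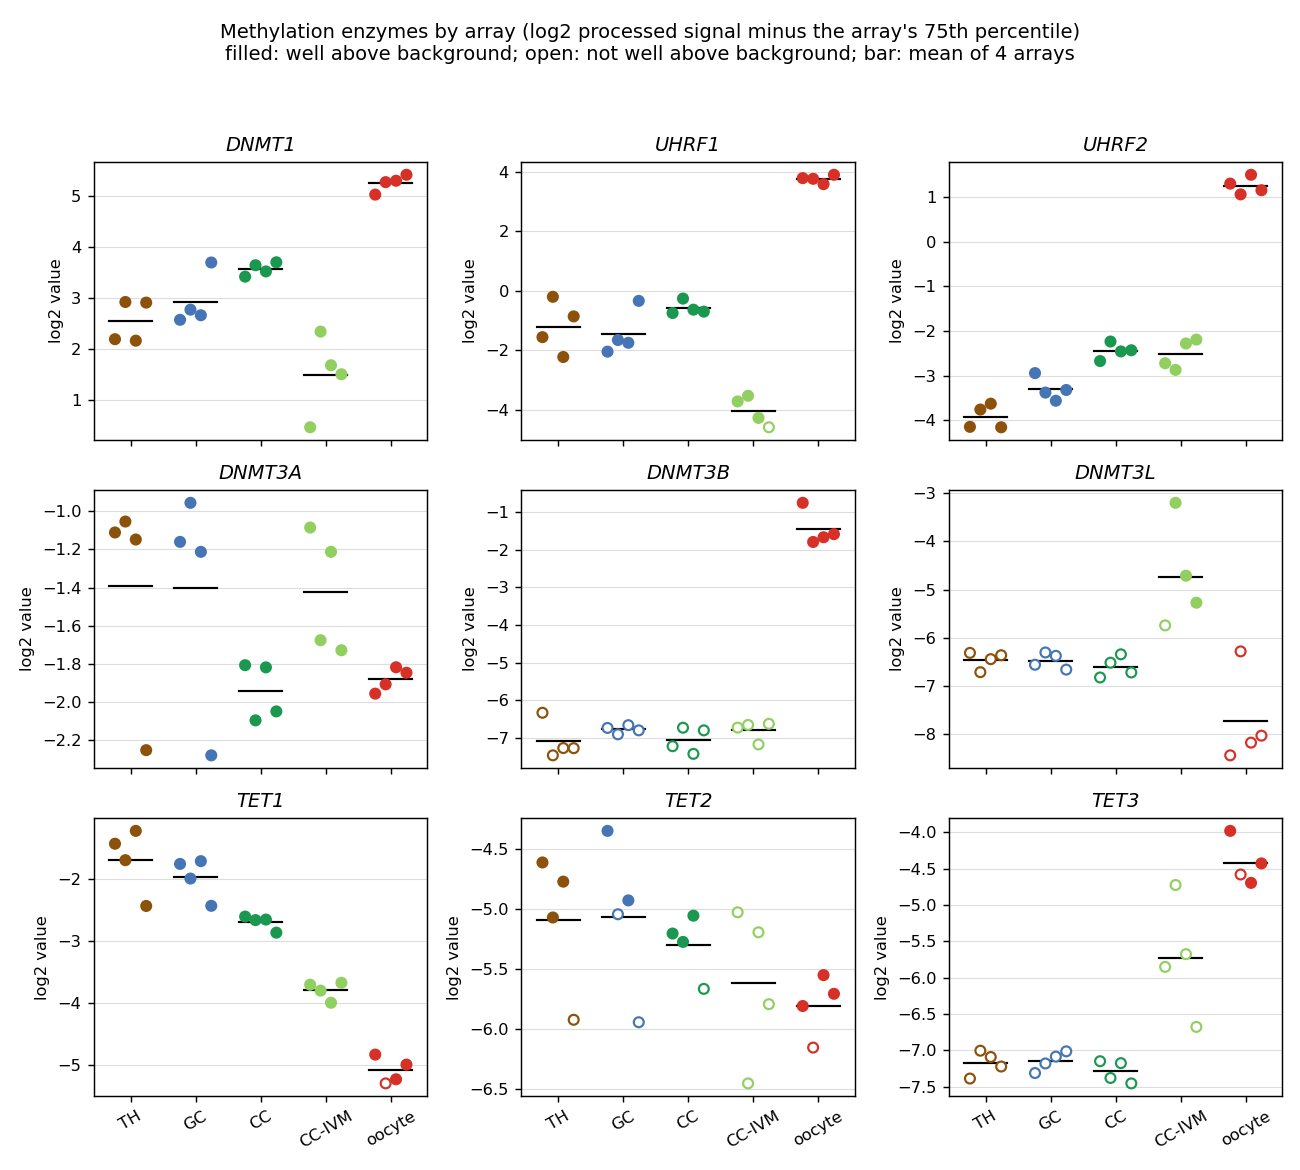
Expression of the 9 genes on each of the 20 arrays, as log2 processed signal minus the 75th percentile of the array (y axis), by group (x axis); filled points are well above background, open points are not, and bars are means of 4 arrays. DNMT1, UHRF1, and UHRF2 are highest in the oocyte, TET1 is lowest there, and DNMT3B is filled in the oocyte only.

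Among the genes for maintenance, DNMT1 was at 2.19, 2.92, 2.16, and 2.91 on the 4 TH arrays, at 2.57, 2.77, 2.66, and 3.69 in GC, and at 3.42, 3.64, 3.52, and 3.70 in CC. It was at 5.02, 5.27, 5.29, and 5.41 in the oocyte and at 0.47, 2.34, 1.68, and 1.51 in CC-IVM. The oocyte arrays lay above all others and the CC-IVM arrays overlapped only with TH, while GC replicate 4 was the one GC array at the level of CC. The oocyte exceeded the somatic mean by 2.23, with a standard error of 0.20 (limma adjusted p = 6.12e-08). By pairs it was 1.68 against CC, 2.32 against GC, and 2.70 against TH. In the order of levels, oocyte, CC, GC, and TH, the neighbours CC and GC (0.64, adjusted p = 0.134) were not told apart, nor were GC and TH.

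UHRF1, the reader of hemimethylated CpG, was at 3.78, 3.76, 3.58, and 3.89 in the oocyte. It was at -0.75, -0.26, -0.63, and -0.70 in CC, at -2.04, -1.65, -1.75, and -0.34 in GC, and at -1.56, -0.20, -2.22, and -0.86 in TH. The oocyte stood clear of every other array, and the 3 immature somatic groups overlapped, with GC replicate 4 again the highest of its group. The oocyte exceeded the somatic mean by 4.83, with a standard error of 0.32 (limma adjusted p = 1.31e-09), and it was 20.2-fold against CC, 36.7-fold against GC, and 31.2-fold against TH. Its paralogue UHRF2 was at 1.2997, 1.06, 1.498, and 1.15 in the oocyte, at -2.67, -2.24, -2.46, and -2.43 in CC, at -2.94, -3.38, -3.56, and -3.32 in GC, and at -4.15, -3.76, -3.63, and -4.16 in TH. These 4 groups did not overlap, and each step in the order from oocyte to CC, GC, and TH passed the test. UHRF2 was 4.48 higher in the oocyte than in the somatic mean, with a standard error of 0.15 (limma adjusted p = 3.44e-13). The 2 sequences of UHRF2 gave 4.32 and 4.68 as their mean differences, and those of UHRF1 gave 4.78 and 4.88. The probes of DNMT1 gave 2.23 and 2.24.

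Among the genes for de novo methylation, DNMT3A was at -1.96, -1.91, -1.82, and -1.85 in the oocyte and at -1.81, -2.10, -1.82, and -2.05 in CC. It was at -1.16, -0.95, -1.21, and -2.28 in GC and at -1.11, -1.05, -1.15, and -2.25 in TH. The replicate 4 arrays of GC and TH lay more than the whole range of their 3 partners from them, under the level of the oocyte. The oocyte differed from the somatic mean by -0.30, with a standard error of 0.24 (limma adjusted p = 0.245). Without TH replicate 4 and GC replicate 4, which were left out after their values had been seen, the difference was -0.50 (adjusted p = 0.000565). With the deposited log2 table in place of the processed intensity its direction turned, to 0.13. The probes of DNMT3A also behaved differently from each other. Probe A averaged -0.31 (TH), -0.58 (GC), -1.46 (CC), and -1.53 (oocyte), and its oocyte difference of -0.75 was called (adjusted p = 0.0321). Probe B averaged -2.48, -2.22, -2.43, and -2.24 in the same order, and its difference of 0.14 was not called (adjusted p = 0.553).

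DNMT3B was at -0.74, -1.79, -1.66, and -1.58 on the oocyte arrays, all well above background. On the other 16 arrays it lay between -7.47 and -6.34, and none was well above background. Measured against the lowest signal that counts as above background on each array, DNMT3B was at least 12.04-fold higher in the oocyte than in GC, 14.4-fold higher than in TH, and 15.7-fold higher than in CC (limma adjusted p of the difference from the somatic mean 3.04e-12). The bound against CC-IVM, set across slides, was at least 9.86-fold. These bounds belong to the scaling and background of the main fit. Over the alternatives the measured log2 difference from the somatic mean ranged from 1.90 to 6.70, and its direction and call were kept in each. In scanner units before scaling, the processed signal of DNMT3B spots was 248 to 2012 in the oocyte and at most 10.3 elsewhere. Both of its probes were called higher in the oocyte, with no somatic array of either probe above background. DNMT3L, the cofactor of these enzymes, lay between -6.83 and -6.31 on the TH, GC, and CC arrays and at -8.45, -6.29, -8.18, and -8.04 in the oocyte, and none of these 16 arrays was well above background. limma called a difference of -1.22 (adjusted p = 0.00117), but both sides of it are below background and no fold is given.

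Among the TET dioxygenases, TET1 was at -1.44, -1.70, -1.23, and -2.44 in TH, at -1.76, -1.998, -1.72, and -2.44 in GC, and at -2.61, -2.67, -2.66, and -2.87 in CC. In the oocyte it was at -4.83, -5.29, -5.23, and -4.99, and replicate 2 was not well above background. TH and GC overlapped, CC lay under both, and the oocyte lay under all 12 somatic arrays. The oocyte differed from the somatic mean by -2.96, with a standard error of 0.19 (limma adjusted p = 1.21e-09). It was -2.38 against CC, -3.10 against GC, and -3.38 against TH. All TET1 spots were called lower in the oocyte, by -2.57 as the difference at probe B and -3.05 to -2.68 at probe C. Probe A, which shares only its last 7 bases with probe B, failed to rise well above background on all oocyte arrays, with a mean of -7.42, so that no size is given for it, whereas probe B, at -4.30, was above background on 3 of 4.

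TET2 was near the background throughout. It was at -4.61, -5.07, -4.77, and -5.93 in TH, at -4.35, -5.05, -4.93, and -5.95 in GC, at -5.21, -5.28, -5.06, and -5.67 in CC, and at -5.81, -6.16, -5.55, and -5.71 in the oocyte. The groups overlapped, and 3 arrays each of TH, CC, and the oocyte and 2 of GC were well above background. The difference of -0.65 from the somatic mean passed the test (standard error 0.26, limma adjusted p = 0.0378) while none of the pairs did, with adjusted p = 0.188 against CC, 0.0537 against GC, and 0.0664 against TH. The call lay near the threshold and was lost in 12 alternatives, among them several that left out 1 array, such as oocyte replicate 2 (-0.53, adjusted p = 0.0995). It was also lost with quantile normalization (-0.50, adjusted p = 0.148) and the array median (-0.48, adjusted p = 0.131). Probe A gave -0.34 (adjusted p = 0.394) and probe B -0.96 (adjusted p = 0.00201). Before scaling, TET2 spots read 23.5 to 49.9 in the oocyte, 10.4 to 30.3 in TH, 4.58 to 22.3 in GC, and 8.95 to 23.2 in CC. The difference was -1.06 (adjusted p = 0.0163) on the first slide and -0.25 (adjusted p = 0.588) on the second. Without TH replicate 4 and GC replicate 4, left out after seeing the data, it was -0.84 (adjusted p = 0.000585). TET3 was at -3.98, -4.58, -4.70, and -4.43 in the oocyte, 3 of them well above background, and between -7.45 and -7.00 on the 12 somatic arrays, none of them above background. It was at least 1.53-fold higher in the oocyte than in GC, 1.82-fold higher than in TH, and 1.99-fold higher than in CC, with a limma adjusted p of 3.62e-11 for the difference from the somatic mean. Before scaling, TET3 spots read 68.2 to 126 in the oocyte and 2.20 to 8.001 in TH, GC, and CC, and replicate 2, the oocyte array not marked as above background, held the highest readings (116 and 126). The direction of TET3 turned under normexp correction with an offset of 50 (-0.39, adjusted p = 0.0465), which adds a constant to all spots before the array is scaled, and was kept with a small offset of 1 (1.13, adjusted p = 2.59e-05), an alternative chosen after seeing the data.

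**Figure D2:**
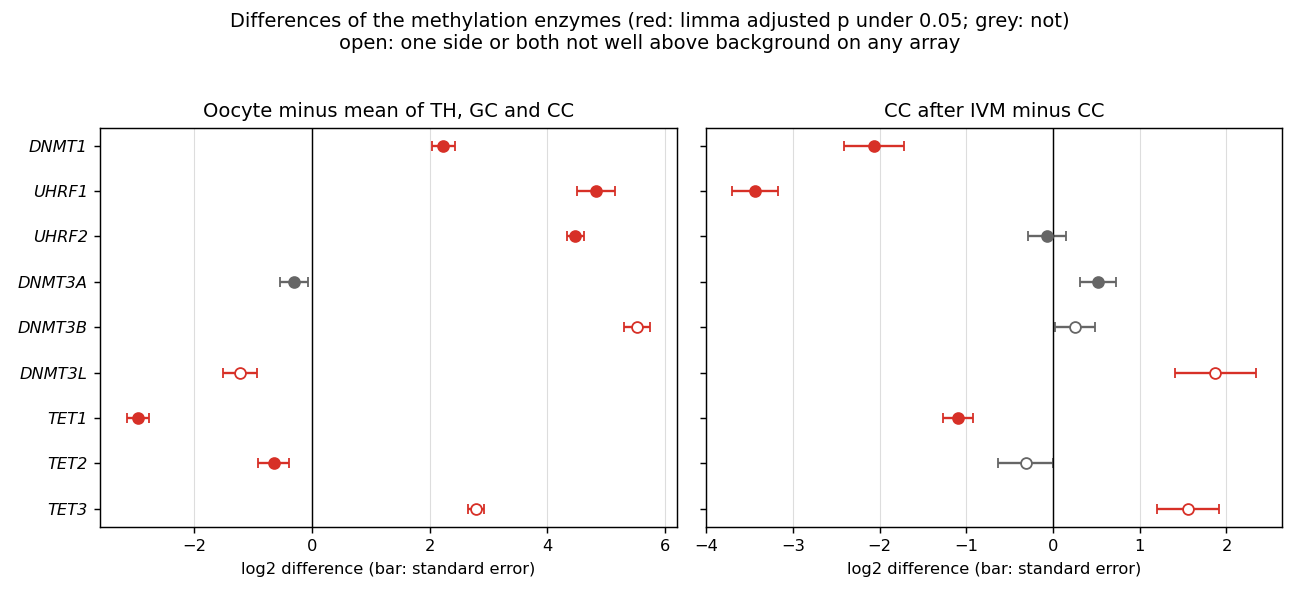
Log2 differences of the 9 genes (x axis, bars are standard errors) between the oocyte and the somatic mean on the left and between CC-IVM and CC on the right; red points passed limma's test, grey points did not, and open points have a side that was not well above background on any array. UHRF1 is 4.83 higher in the oocyte and 3.44 lower after maturation, UHRF2 is 4.48 higher in the oocyte and near 0 after maturation, and TET1 is lower in both.

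Against each somatic cell type on its own, the same members were called in the oocyte, 5 higher (DNMT1, UHRF1, UHRF2, DNMT3B, and TET3) and 2 lower (TET1 and DNMT3L, the latter below background on both sides). The background was 31.8% higher and 32.0% lower against CC, 30.7% and 37.9% against GC, and 32.5% and 32.1% against TH. These comparisons share the oocyte arrays and are not independent of each other.

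The comparisons among the somatic cells ask how the layers of the follicle differ. In the main fit UHRF2 was the member called higher at each step from TH to GC to CC. The means of DNMT1 rose in the same order, but neither step was called. Between CC and TH, UHRF2 was 2.78-fold higher (1.47, standard error 0.18, limma adjusted p = 1.12e-05), DNMT1 2.03-fold higher (1.02, standard error 0.25, adjusted p = 0.00464), and TET1 2.00-fold lower (-0.997, standard error 0.24, adjusted p = 0.00412). That is 2 of 9 called higher in CC, where 17.4% of all genes were, and 1 of 9 lower, where 14.4% were. The CC and TH arrays did not overlap in any of these 3 genes. Within a slide the DNMT1 difference was 0.97 (adjusted p = 0.103) and 1.07 (adjusted p = 0.123), and that of TET1 was -1.07 (adjusted p = 0.0492) and -0.93 (adjusted p = 0.218). Without TH replicate 4, DNMT3A was called lower in CC as well.

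Between GC and TH, UHRF2 alone was called, 1.54-fold higher in GC (0.62, standard error 0.18, limma adjusted p = 0.0184), or 1 of 9 against a background of 14.5% higher, and 0 of 9 were lower against 11.8%. Within slides it was 0.79 (adjusted p = 0.189) and 0.45 (adjusted p = 0.365), and the call was lost with the deposited table, under normexp, and when TH replicate 1, TH replicate 4, or GC replicate 1 was left out (0.55, 0.54, and 0.50, adjusted p = 0.0608, 0.0508, and 0.0655). Between CC and GC, UHRF2 was again the member called, 1.81-fold higher in CC (0.85, standard error 0.18, limma adjusted p = 0.00680), 1 of 9 against 5.28% of all genes, and 0 of 9 were lower against 4.61%. Under normexp this difference was 0.30 (adjusted p = 0.344), and within slides it was 0.71 (adjusted p = 0.398) and 1.00 (adjusted p = 0.153). This comparison rested on GC replicate 4. Without it, 5 members were called, with UHRF2 at 0.85 (adjusted p = 0.0128), UHRF1 at 1.23 (adjusted p = 0.0364), and DNMT1 at 0.90 (adjusted p = 0.0107) higher in CC, and TET1 at -0.87 (adjusted p = 0.0307) and DNMT3A at -0.84 (adjusted p = 0.0426) lower. The shares of 5.28% and 4.61% belong to the fit with GC replicate 4. Those of the fit without it were not counted, so the rise to 5 cannot be set against all genes. On the summed granulosa and cumulus markers GC replicate 4 was at 8.82 (log2 of the sum), at the level of CC (8.57 to 8.62), while the other GC arrays were at 6.79 to 7.70. On the summed theca markers GC replicates 2 and 3 were the highest of GC, at 6.84 and 6.65. GC replicates 1 and 4 were at 4.90 and 5.09 there, and CC at 4.66 to 5.03. Leaving out replicate 4 thus kept the GC arrays with the highest theca sums. The part of these markers in the result, with or without replicate 4, was not tested.

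Oocyte transcripts were also measured in CC. Each of the 6 oocyte markers was higher in CC than in GC, by 0.50 to 3.101 with 5 called, and than in TH, by 0.20 to 3.28 with 5 called, and their summed level was -0.83 to 1.59 in CC against -2.49 to -1.32 in GC, -1.45 to -0.58 in TH, and 7.96 to 8.37 in the oocyte. The oocyte exceeded CC by 7.24 to 9.67 in these markers, and by 4.34 in UHRF1, 3.70 in UHRF2, and 1.68 in DNMT1. The part of oocyte RNA in the differences of UHRF2 and DNMT1 between CC and the other somatic cells was not tested. DNMT3B was not well above background on any CC array, but this cannot bear on that part. Its oocyte mean was -1.44, and the dimmest signals marked as above background in CC were at -5.72 to -5.26. A level lower than in the oocyte by as much as the markers were would not be seen.

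The last comparison asks what 4 h of in vitro maturation changed in cumulus cells. UHRF1 fell 10.8-fold, DNMT1 4.19-fold, and TET1 2.13-fold, while UHRF2 and DNMT3A did not pass the test and DNMT3L came above background. UHRF1 was at -3.71, -3.52, -4.27, and -4.58 in CC-IVM, with replicate 4 not well above background, against -0.75 to -0.26 in CC, which came to -3.44 (standard error 0.26, limma adjusted p = 1.80e-05). DNMT1, with the values given above, differed by -2.07 (standard error 0.35, adjusted p = 0.00157), and by -2.35 to -1.72 when 1 array was left out. TET1 was at -3.70, -3.80, -3.995, and -3.67 in CC-IVM and differed by -1.09 (standard error 0.17, adjusted p = 0.00119). The CC-IVM and CC arrays did not overlap in these 3 genes. Under normexp correction the TET1 difference was -0.14 (adjusted p = 0.251). Over the alternatives the UHRF1 difference ranged from -3.65 to -1.72, so its size depends on the processing, while its call was kept in each. Of the 9 members, 3 were called lower, where 15.5% of all genes were, and 2 higher, where 30.3% were.

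In contrast with its paralogue, UHRF2 was at -2.72, -2.87, -2.28, and -2.19 in CC-IVM and overlapped with CC, and its difference was -0.07 (standard error 0.22, limma adjusted p = 0.815), and its sign turned under several alternatives. Whether UHRF1 and UHRF2 differed from each other in their change was not tested. DNMT3A was at -1.08, -1.68, -1.21, and -1.73 and differed by 0.52 (standard error 0.21, adjusted p = 0.0692), or by 0.60 without CC-IVM replicate 2 (adjusted p = 0.0490). All CC-IVM arrays lay above all CC arrays, but its probes parted again, with a called rise of 1.23 at probe A (adjusted p = 0.0311) and -0.19 at probe B (adjusted p = 0.490). DNMT3L was at -5.75, -3.20, -4.71, and -5.27 in CC-IVM, the last 3 well above background by at least 1 of its 2 probes. Probe B was above background on these 3 arrays and probe A on 1. The values of replicates 1 and 4 lay below the dimmest signal marked as above background on their arrays (-4.68 and -4.58). By the group mean DNMT3L was at least 1.601-fold higher than in CC (adjusted p = 0.0125). CC-IVM replicate 2 gave the highest value. Without it the difference was 1.36 (limma adjusted p = 0.00481), and the bound fell to 1.12-fold. As both group means include the low values of replicates 1 and 4, neither bound is firm. DNMT3L was the one member above background only after maturation, and its spots read 2.63 to 53.0 before scaling. TET3 was at -5.85, -4.73, -5.68, and -6.68 and was called higher by 1.56 (adjusted p = 0.00816), but no CC or CC-IVM array was well above background and no fold is given, and replicate 2 was again the highest. TET2, at -5.03, -6.46, -5.20, and -5.80 with no CC-IVM array above background, and DNMT3B, with no array above background on either side, were not called (adjusted p = 0.430 and 0.392). After quantile normalization the called members were DNMT1, TET1, and UHRF1. Of 4 markers of the cumulus after maturation, 2 were on the array. HAS2, which makes hyaluronan, was 7.76 higher in CC-IVM, and PTX3 differed by -0.11 (adjusted p = 0.862). All 6 oocyte markers had lower values in CC-IVM than in CC, by -3.44 to -0.21 as the difference with 4 called. Markers of blood cells (3 of 3) and endothelium (2 of 3) were called higher in CC-IVM. The summed level of the blood cell markers was -3.57 to -2.25 in CC and -1.16 to -0.05 in CC-IVM, and that of the endothelial markers was -5.63 to -4.86 and -4.34 to -3.11, without overlap. PTPRC and CDH5 were not well above background on any array of either group, HBB and PECAM1 were above it on no CC array, and CD68 was on all arrays of both. The part of these oocyte, blood cell, and endothelial markers in the differences of the members was not tested.

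**Figure D3:**
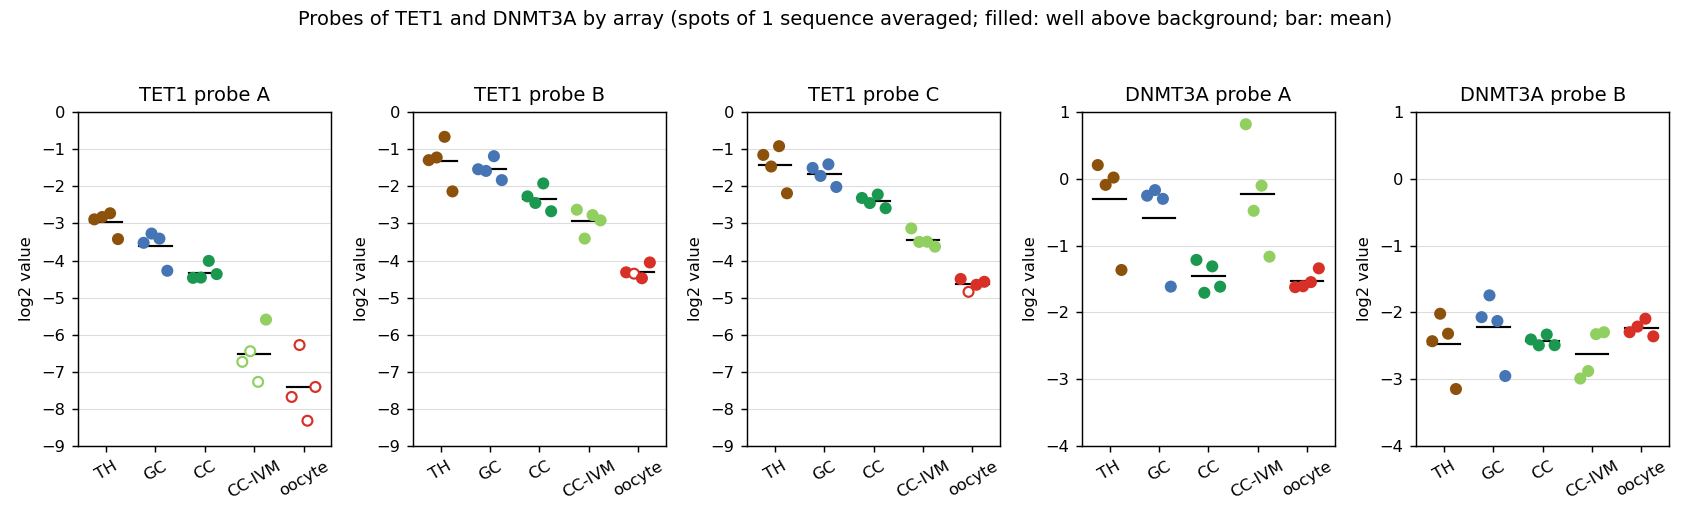
Values of the TET1 and DNMT3A probes on each array, as log2 processed signal minus the 75th percentile of the array (y axis), by group (x axis); filled points are well above background and bars are means of 4 arrays. TET1 has its lowest mean in the oocyte at all 3 probes, and probe A is open on all 4 oocyte arrays, while DNMT3A differs between groups at probe A, where CC has a mean of -1.46 and CC-IVM of -0.23, and less so at probe B.

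After maturation, 2 of the 3 spots of TET1 probe A were called lower, but only 1 of 4 CC-IVM arrays was well above background there and no size is given. Probe B differed by -0.60 (limma adjusted p = 0.0718), and probe C by -1.20 to -0.89 with all 4 spots called.

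Genes that act beside the members were counted from 4 lists, chosen with earlier results of these data known. Of the list for maintenance, targeting, and protection, 18 of 20 genes were on the array. In the oocyte 11 were higher than in the somatic mean, 4 lower, and 3 not called, where 32.9% of all genes were higher and 38.3% lower, with a median of 1.22 beside -0.52 over all genes. After maturation 0 were higher, 10 lower, and 8 not called in CC, where 30.3% of all genes were higher and 15.5% lower, with a median of -0.67 beside 0.37. CDCA7, which works with the remodeller HELLS in methylation of heterochromatin, was 2.92 higher in the oocyte and fell by 4.10 after maturation. PCNA, the replication clamp that binds DNMT1, was 2.01 higher in the oocyte, and USP7, a deubiquitinase that binds DNMT1 and UHRF1, 1.88 higher. HELLS fell by 2.25 and TRIM28, a corepressor at imprinted regions, fell by 1.93 in CC after maturation. DPPA3, which protects the maternal genome from oxidation, was outside the rule for named genes and was named after its values were seen. It lay at 4.82 to 5.20 in the oocyte and at -5.48 to -2.59 in CC, and no TH or GC array was above background.

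The list of genes for DNA replication and mitosis, all 20 on the array, was counted against the same shares of all genes. These were 32.9% higher and 38.3% lower in the oocyte, and 30.3% higher and 15.5% lower after maturation. In the oocyte 14 were higher, 0 lower, and 6 not called, with a median of 1.75, and examples are CDC6 (4.87), CCNB1 (4.65), and CCNA2 (4.45). In CC after maturation 16 were lower, 1 higher (RRM2), and 3 not called, with a median of -1.38, and the replicative helicase genes MCM3 and MCM5 differed by -3.20 and -3.10 and the licensing factor CDT1 by -2.95. In CC against TH 9 were higher and 0 lower, where 17.4% and 14.4% of all genes were. Against GC 0 were called either way, where 5.28% of all genes were higher and 4.61% lower. UHRF2 was not called after maturation, and its call between CC and GC was lost under normexp and within each slide. The part of replicating cells in the differences of DNMT1, UHRF1, and UHRF2 was not tested.

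Readers of CpG methylation and CXXC proteins, 13 of 14 on the array, showed no common direction in the oocyte, with 5 higher, 5 lower, and 3 not called (median -0.10), and after maturation 1 was higher, 2 lower, and 10 not called (median -0.01). Their shares in the oocyte lay near the 32.9% and 38.3% of all genes, and after maturation 30.3% of all genes were higher and 15.5% lower. The same shares of all genes stand beside the counts of the next list. MBD2, a reader that recruits the NuRD complex, was lower in the oocyte (-2.76) and higher after maturation (2.38), and MBD1 was 1.74 higher in the oocyte. CXXC5 was lower in both (-1.67 and -1.79), and CXXC1 was lower after maturation (-0.99). Of the genes for removal of oxidised or methylated cytosine, repair, and cofactors, all 20 on the array, 8 were higher in the oocyte, 8 lower, and 4 not called (median -0.29), and after maturation 5 were higher, 7 lower, and 8 not called (median -0.23). MBD4, a thymine glycosylase, was 4.03 higher in the oocyte and NEIL2, another glycosylase, 2.81 higher. IDH2, a mitochondrial source of 2-oxoglutarate, a compound that TET enzymes consume, was lower in the oocyte (-4.03). TDG, the glycosylase that excises the products of TET oxidation, was named after its values were seen, and it was lower by -7.37 as the log2 difference, with 2 of 4 oocyte arrays above background. In CC after maturation GADD45A (3.098) and OGT (2.58), the glycosyltransferase that binds TET proteins, were higher, and GADD45G was lower (-3.40).

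**Figure D4:**
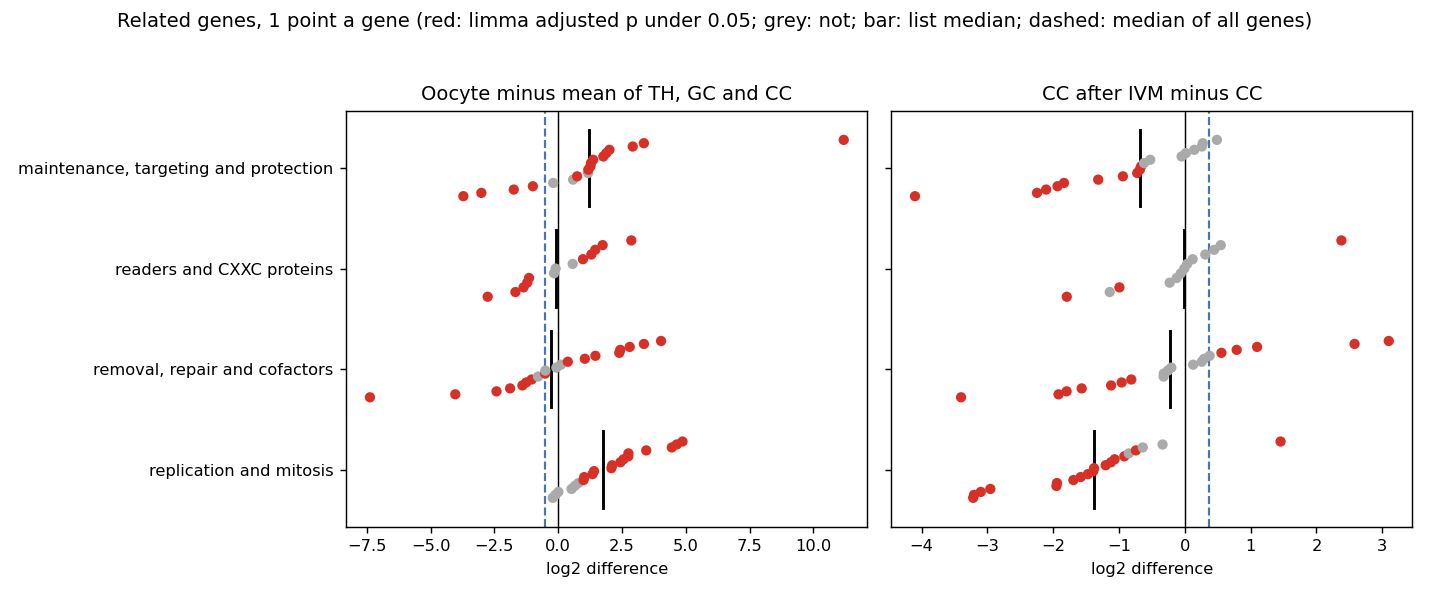
Log2 differences of the genes of the 4 related lists (x axis, 1 point a gene, lists on the y axis) between the oocyte and the somatic mean on the left and between CC-IVM and CC on the right; red points passed limma's test, black bars are list medians, dashed lines are medians of all genes, and the rightmost point, DPPA3, is not a measured size because TH and GC lay below background. The replication list has its median at 1.75 in the oocyte and at -1.38 after maturation.

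The genes whose pattern was most like that of each member over the 20 arrays were found among 15155 genes by Pearson's r, as a description of arrays that share groups and slides. DNMT1 was followed by DNAJC30 (0.98), PDSS2 (0.97), and SSH3 (0.97), UHRF1 by AUNIP (0.99), WDR76 (0.98), and SPIDR (0.98), and UHRF2 by KIAA1324L (0.99), an endogenous retrovirus probe (0.99), and ZNF215 (0.99). DNMT3B was followed by TCL1B, ASTL, and ZGLP1, all at 0.99. The values of TET1 were followed by NIT1, RASSF9, and RNF149 (0.96 each) and those of TET3 by CCDC81 (0.97), EMC8 (0.96), and COMP (0.96). The closest genes reached lower values for DNMT3A (FLT4 0.82, THRAP3 0.81, SYTL4 0.80) and TET2 (ZMYM4 0.83, CHM 0.81, ZNF623 0.80), the members that the F-test did not call. DNMT3L was closest to bta-mir-763 (0.95), GLYAT (0.94), and MLPH (0.93).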

How the data were processed

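The microarray was a custom bovine Agilent design, hybridised in 1 colour from 200 ng of total RNA per sample. The authors deposited scanner output for each array (Agilent Feature Extraction 10.7.3.1), in which the intensity of every spot is background-subtracted and detrended but not normalized between arrays, together with marks of 0 or 1 for other properties, such as signal well above background. They also deposited 1 table of log2 values, which equalled log2 of the median pixel signal minus the median of the array within 5.0e-09 and in which the background was not subtracted.

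Control and outlier-marked spots were left out. Of the 61325 probes, 9779 lacked a gene name, and 734 of them were named by accession through RefSeq. The 75th percentile of log2 processed intensity over non-control probes served as the zero of each array, and a gene's value was the median of its spots. limma 3.58.1 (R 4.3.3, data.table package 1.17.8), with lmFit and eBayes, was fitted to 16 arrays (all but CC-IVM) and, separately, to 8 arrays (CC and CC-IVM), without a block. Fits were tested on simulated data. Summaries and plots used Python 3.11.15, pandas 2.3.3, numpy 2.4.6, and matplotlib 3.10.9. A gene not well above background on any array of a group was given a bound, from the brighter group's mean and, for each array of the dimmer group, its own value or the dimmest signal marked as well above background, whichever was higher.

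Groups came from the sample titles. All 9 members are named, with the 3 genes most like each and the 3 genes per related list with the largest difference that passed the test and had at least 3 arrays above background in every cell type. The members and lists were chosen with earlier results of these data known. The alternatives were quantile normalization, the array median, normexp correction (offset 50), the deposited table, other summaries of probes, removal of dim genes, a single fit of all arrays, blocks for slide or replicate number, arrayWeights, eBayes with trend and robust, the methods' analysis of variance for the F-test, each slide on its own, and leaving out each replicate. Same-numbered arrays of TH and GC deviated together (r of 0.12 to 0.37 over genes in 4 of 4 pairs). A pairing of these 2 groups by replicate number is thus possible but was not tested, and the labels do not say what the number marks. In each other pair of groups at least 1 pair was at 0.1 or less. The precision is limited by 4 arrays per group.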

Additional observations from a re-analysis of the deposited data

Results flagged for a closer look

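The highest or lowest of the 4 arrays of a group was set against the other 3 in each of the 45 combinations of member and group, by the ratio of its gap to the range (Dixon's test). Chance marks about 1 in 20 groups, and 2 of the 45 were marked. DNMT3A in TH replicate 4 was at -2.25, with a gap of 0.921 of the range. This array stood apart from the other TH arrays over all genes as well. DNMT3B in TH replicate 1 was at -6.34 and just passed the critical value, in a group where no array was well above background in that gene.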

How the results depend on the processing

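Over 657 refits of 23 differences of members, 602 kept their direction and their side of the threshold, 31 lost the call, 12 gained one, and 12 turned. When 1 array at a time was left out, the F-test called 6 to 9 of the 9 members, and against the somatic mean 5 (5 to 5) were higher in the oocyte and 2 to 3 lower. The number called was 7 to 7 for the oocyte against CC, 7 to 9 against GC and against TH, 0 to 1 for GC against TH, 3 to 4 for CC against TH, 1 to 5 for CC against GC, and 5 to 6 after IVM. Of the other alternatives, the number lower in the oocyte was 5 under normexp and 1 when each probe was tested on its own. GC against TH gave 0 under normexp, with the deposited table, within slide 1 or slide 2, and without TH replicate 4 and GC replicate 4, and also 0 without TH replicate 1, TH replicate 4, or GC replicate 1. CC against TH gave 1 within slide 2 and 5 with arrayWeights. CC against GC gave 0 under normexp and within each slide, 2 with the filter on dim genes and with the replicate block, 4 with arrayWeights, and 5 without TH replicate 4 and GC replicate 4, a pair left out after seeing the data. After IVM quantile normalization gave 3. The shares of all genes called were counted for the main fit only.

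The direction turned in DNMT3A in the oocyte (0.13, deposited table), in TET3 in the oocyte (-0.39, normexp), in DNMT3B after IVM (-0.31, quantile normalization), and in TET2 after IVM (0.53 under normexp, 0.16 with the deposited table, 0.20 with the small offset). UHRF2 after IVM was 0.23 under normexp, 0.0506 with arrayWeights, 0.0454 with the small offset, and 0.00147 to 0.0513 without CC replicate 2, CC-IVM replicate 1, or CC-IVM replicate 2. The lowest value found on an array after normexp was -5.88 to -4.97 in the oocyte and -4.54 to -3.09 in TH, GC, and CC. The cause was not tested for TET3 or for any other of these turns. The TET2 call in the oocyte was lost in 12 alternatives, 8 of which left out 1 array. Deviations of same-numbered arrays correlated at -0.18 to 0.37 (11 of 40 pairs over 0.1), with all 4 pairs over 0.1 for TH and GC and 3 of 4 for GC and CC, and 9 of 20 arrays were closest to one of their own number. The replicate block left UHRF2 as the member called between GC and TH (limma adjusted p = 0.0326). This block added TET1 in CC against GC, and TET2 in the oocyte against GC and TH (8 members each). It changed no other call. Signals near background limit DNMT3L, TET2, and TET3.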
